A study of Danio rerio with 14 samples.

Results

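The 7 genes described here belong to the xanthophore, the yellow pigment cell of fish, and to the carotenoid and pteridine pathways that colour it. They are plin6, bco1l and scarb1 of carotenoid storage, cleavage and uptake, gch2 and xdh of the pteridine pathway, and csf1ra and slc2a15b of the cell lineage. Each symbol matched 1 row of the deposited tables, so 7 of 36351 genes are covered, and all 7 were well above the filter on low values. Of these genes 5 were listed as known genes of the cell or its pathways; plin6 and bco1l are on the list because they ranked high in the comparison of both compounds. Their values in that comparison, and in the comparisons with solvent that use the same libraries, are therefore given as a description without a test. The other 5 members were tested over all genes.

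Zebrafish of the AB wild-type strain received M510F01, a metabolite of boscalid, at 0.03 µg/L, or the fungicide boscalid itself at 0.03 µg/L. Controls were kept in the solvent alone, dimethyl sulfoxide (DMSO) at 0.01% by volume, and the labels give no solvent level for the exposed larvae. Exposure began at 3 hours post fertilization (hpf) and was renewed daily, and whole larvae were sampled for RNA at 96 hpf. The tables held 4 libraries of each group, 12 in all. Per the labels 2 further samples exist, the fifth of each compound, and they were not analysed here. The labels do not say whether replicates came from separate clutches, tanks or pools, so a p measures only the spread between these samples. Depth ran from 12893093 to 17060350 gene-assigned reads per library. The first component of the differences within groups held 37.9% of that variance, with replicates 1 and 2 of every group on its negative side and replicates 3 and 4 on its positive side.

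Xanthophores arise from the neural crest and need the receptor encoded by csf1ra. They take their yellow from pteridines, made from GTP, and from carotenoids taken up from the yolk or food and kept in lipid droplets. In a young larva the pteridines make most of the colour, and the carotenoid part grows with feeding. Several of the genes also work elsewhere: csf1ra in macrophages and microglia, scarb1 and carotenoid oxygenases in gut and liver, and xdh in purine breakdown. The 8 xanthophore markers gch2, csf1ra, slc2a15b, aox5, pax7a, pax7b, sox5 and slc2a11b were all detected in every library, with at least 95 reads each. Their summed level was 3942 to 4062 normalized counts in M510F01 larvae, 3158 to 4044 in boscalid larvae and 3514 to 4610 in DMSO larvae, so the groups overlapped. Sox5 made up 36.5% of the sum with M510F01, 36.9% with boscalid and 33.9% with DMSO on average. Without sox5 the other 7 markers summed to 2362 to 2703 with M510F01, 1787 to 2813 with boscalid and 2366 to 3181 with DMSO. These sums overlapped as well. In whole larvae other cells can add to such marker sums, as macrophages do for csf1ra, and their part was not tested. A normalized count is the number of reads divided by 1 size factor per library, and levels below are on the scale shared by all 12 libraries.

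The storage gene plin6 stood lowest in boscalid larvae. Bco1l and scarb1 had their highest means in M510F01 larvae, where bco1l libraries overlapped with those of DMSO. Plin6 and bco1l were chosen by the comparison of both compounds, so their order between the compounds is a description only. Their estimates and intervals below take no account of that choice, so an interval that leaves out 0 is no test of them. Among the 5 tested members none passed an adjusted p of 0.05 in any comparison.

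Plin6 (LL0000022135) encodes a perilipin of fish, a coat protein of lipid droplets that is known from the carotenoid droplets of zebrafish xanthophores. It was at 99.1, 105, 129.7 and 83.3 normalized counts in M510F01 replicates 1 to 4. In boscalid replicates 1 to 4 it was at 50.6, 50.9, 56.2 and 60.1 normalized counts. In DMSO replicates 1 to 4 it was at 98.3, 176, 84.0 and 92.9 normalized counts. All 4 boscalid libraries lay below every library of the other groups, while M510F01 and DMSO libraries overlapped. The means were 104 ± 19.3 with M510F01, 54.4 ± 4.55 with boscalid and 113 ± 42.6 in controls (SD, n = 4 libraries per group). The spread with boscalid was 8.36% of the mean, against a counting error of 13.4% at that depth. In bulk RNA of whole larvae, fewer cells of a type and less RNA per cell cannot be told apart.

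As a log2 fold change plin6 was at -0.98 in boscalid against DMSO larvae (SE 0.22, 95% interval -1.46 to -0.49), a level 1.97-fold lower with boscalid. Of the DMSO libraries replicate 2 was far above the others, and without it the estimate was -0.74. With replicates 1 and 2 alone it was -1.36 and with replicates 3 and 4 alone -0.59, a split chosen after seeing the data. In M510F01 against DMSO larvae plin6 was at -0.06 (-0.56 to 0.43). The sign turned to 0.17 without DMSO replicate 2, to 0.037 without M510F01 replicate 4 and to 0.24 with replicates 3 and 4 alone. With replicates 1 and 2 alone plin6 was at -0.36. M510F01 minus boscalid it was at 0.91 (0.46 to 1.36), rank 20 by p among 23131 genes, which is the value that chose it. The authors' deposited table gives plin6 a log2 fold change of -0.11 for M510F01 with an adjusted p of 0.999. For boscalid it gives -1.05 with an adjusted p of 0.0248. Of the genes given an adjusted p there, 0% were under 0.05 for M510F01 and 0.333% for boscalid. Both deposited values of plin6 rest on libraries that chose the gene, so neither adjusted p stands as a test of it here. A second gene, zgc:171704, overlaps plin6 in RefSeq's annotation of assembly GRCz12tu. It was at 10.8 ± 5.67 normalized counts with M510F01, 10.6 ± 7.07 with boscalid and 20.8 ± 15.5 with DMSO, and whether reads were divided between them was not tested.

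**Figure D1:**
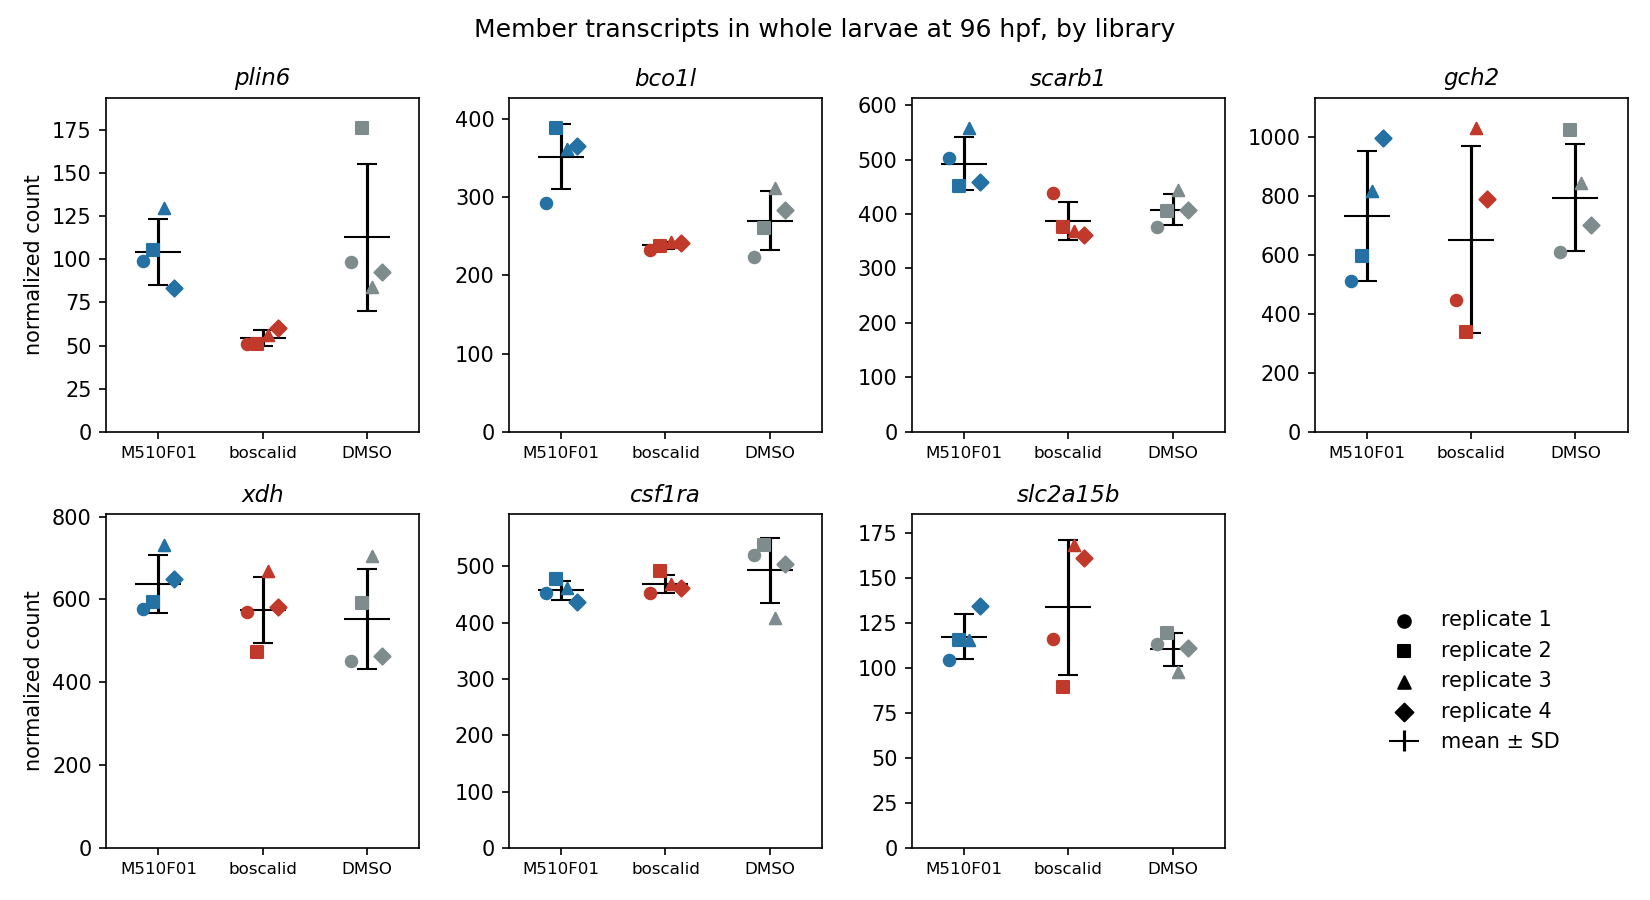
Normalized counts (y axis, from 0) of the 7 members in each library of M510F01, boscalid and DMSO larvae. Points are libraries, shaped by replicate number, and black bars are the mean and SD of 4 libraries. The boscalid points of plin6 lie between 50.6 and 60.1, below all others, and the boscalid points of bco1l lie close together near 239.

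Bco1l (LL0000001857) encodes a relative of beta-carotene oxygenase 1, the enzyme family that cleaves carotenoids. Its M510F01 libraries had 292, 388, 361 and 365 normalized counts. Its boscalid libraries had 233, 237, 243 and 241 normalized counts. Its DMSO libraries had 223, 261, 312 and 284 normalized counts. All M510F01 libraries were above all boscalid libraries, and both groups overlapped with DMSO. The means were 352 ± 41.4 with M510F01, 239 ± 4.44 with boscalid and 270.2 ± 37.6 in controls (SD, n = 4 libraries per group). The boscalid libraries spread by 1.86% of their mean, less than the counting error of 6.40%.

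Between the compounds bco1l differed by 0.55 on the log2 scale, M510F01 minus boscalid (SE 0.12, 95% interval 0.30 to 0.80), rank 14 by p, the value that chose it. M510F01 against DMSO it was at 0.38 (0.09 to 0.67), and boscalid against DMSO at -0.17 (-0.43 to 0.09). That boscalid estimate was -0.25 without DMSO replicate 1 and -0.094 without DMSO replicate 3. Both comparisons with DMSO share the DMSO libraries. The gene next to bco1l in the RefSeq annotation is bco1, which encodes beta-carotene oxygenase 1 itself. Bco1 was at 609.7 ± 102 normalized counts with M510F01, 638 ± 81.0 with boscalid and 493 ± 138 with DMSO. Against DMSO bco1 was at 0.33 with M510F01 (-0.07 to 0.73, limma adjusted p = 0.9998), the same direction as bco1l. With boscalid bco1 was at 0.40 against DMSO (0.007 to 0.80, limma adjusted p = 0.65), where bco1l was at -0.17. M510F01 minus boscalid, bco1 was at -0.07 (-0.45 to 0.30, limma adjusted p = 0.93), where bco1l was at 0.55.

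Scarb1 (LL0000024265) encodes the scavenger receptor that takes up lipids from high-density lipoprotein, and in zebrafish it is needed for carotenoid colour of xanthophores. It was at 503, 451, 557 and 459 normalized counts in M510F01 libraries. Boscalid libraries were at 438, 377, 369 and 362 normalized counts, and DMSO libraries at 376, 405, 444 and 408. Every M510F01 library was above every library of the other groups, and boscalid overlapped with DMSO. The highest library outside M510F01 was a DMSO library at 444, near the lowest M510F01 library at 451. M510F01 against DMSO larvae scarb1 was at 0.27 (SE 0.10, 95% interval 0.05 to 0.49) and did not pass over all genes (limma adjusted p = 0.9998). M510F01 minus boscalid it was at 0.35 (SE 0.099, interval 0.14 to 0.56, limma adjusted p = 0.84), rank 69 by p. Boscalid against DMSO it was at -0.08 (-0.31 to 0.15, limma adjusted p = 0.79).

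Among all genes tested, 1.12% had every M510F01 library above every DMSO library, and 1.06% had every M510F01 library above every boscalid library. Of the 7 members, 1 did so against DMSO (scarb1) and 3 against boscalid (plin6, bco1l and scarb1), of which plin6 and bco1l were chosen by that contrast. Below DMSO in every boscalid library were 2.07% of all genes and 1 member, plin6, which was chosen on the same boscalid libraries. Of the 5 tested members, 0 lay below DMSO in every boscalid library. Each of these shares over all genes counts only 1 direction, the one in which members lay. Shares for either direction are not given here. Scarb1 overlaps myo18b in the RefSeq annotation, which was at 206 ± 57.6 normalized counts with M510F01, 193 ± 26.4 with boscalid and 236 ± 52.7 with DMSO. Enterocyte markers, of a cell type that also expresses scarb1, summed to 132653 to 173643 normalized counts in M510F01 larvae, 115521 to 148985 in boscalid larvae and 120364 to 130711 in DMSO larvae. Their M510F01 sums were all above the DMSO sums and overlapped with those of boscalid. A single apolipoprotein gene of that list, apobb.1, made up 75.0% of the sum with M510F01, 72.7% with boscalid and 76.9% with DMSO on average. Without it the other 14 markers summed to 32276 to 40478 with M510F01, 28452 to 40517 with boscalid and 23850 to 39315 with DMSO, and all groups overlapped. None of the 15 enterocyte markers was at 0. Hepatocyte markers summed to 37383 to 59784 normalized counts with M510F01, 37841 to 66018 with boscalid and 38556 to 50143 with DMSO. Those hepatocyte sums overlapped between all groups. The part of either cell type in the scarb1 values was not tested.

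**Figure D2:**
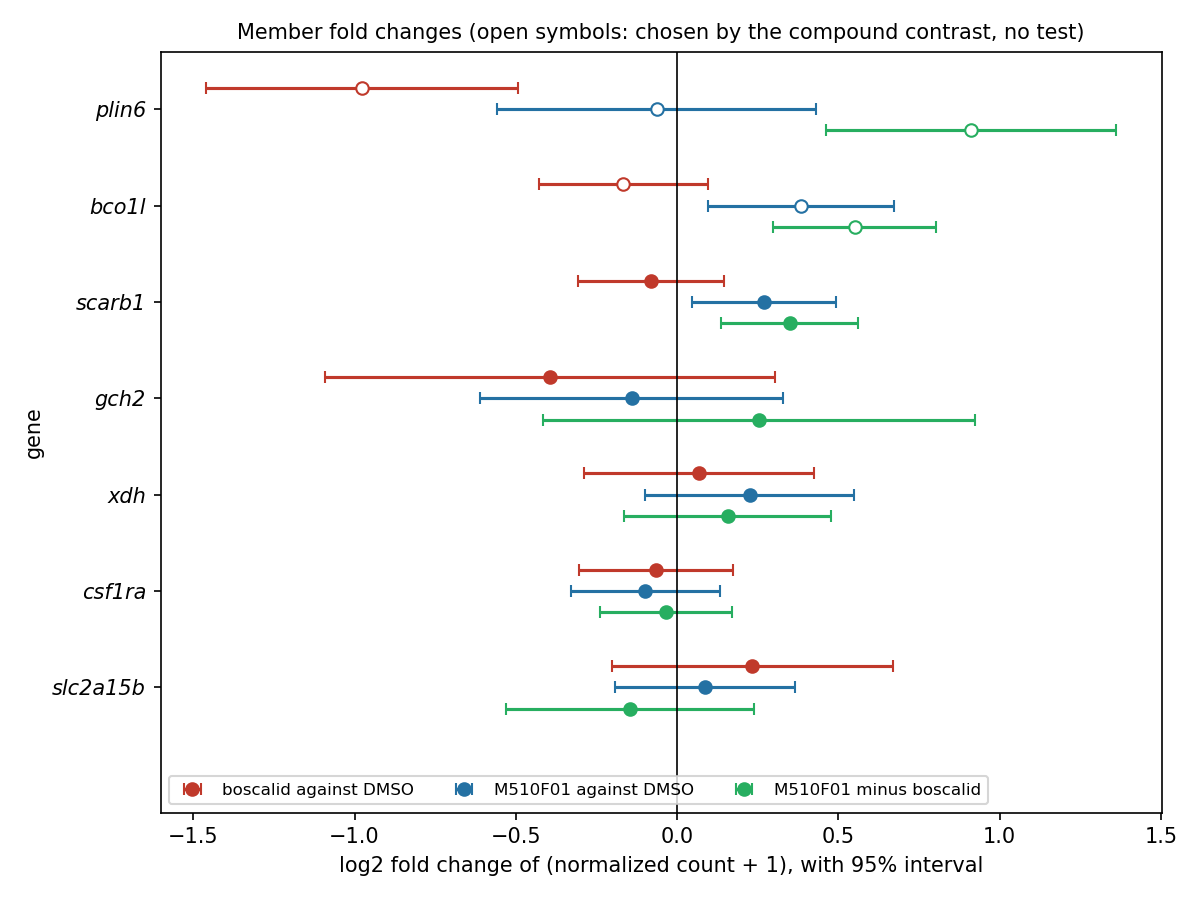
Log2 fold change of each member (x axis) with its 95% interval in the 3 comparisons. Open symbols mark plin6 and bco1l, which were chosen by the comparison of both compounds and are not tested. Their intervals take no account of that choice. The intervals of scarb1 with M510F01 run from 0.05 to 0.49 against DMSO and from 0.14 to 0.56 against boscalid, and the widest intervals are those of plin6 and gch2.

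The pteridine genes ranged more widely within each group than the group means did between groups. Gch2 (LL0000011211) encodes a GTP cyclohydrolase, the first enzyme of pteridine synthesis, and is an early marker of xanthophore precursors. It was at 512, 596, 818 and 998 normalized counts in M510F01 replicates 1 to 4. Boscalid replicates 1 to 4 had 448, 338, 1029 and 789 normalized counts. DMSO replicates 1 to 4 had 609, 1022, 845 and 700.1 normalized counts. All groups overlapped, and with either compound replicates 3 and 4 were above replicates 1 and 2. The ratio of the mean of replicates 3 and 4 to that of replicates 1 and 2 was 1.64 with M510F01, 2.31 with boscalid and 0.948 with DMSO.

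For gch2 the log2 fold change was -0.14 in M510F01 against DMSO larvae (SE 0.21, 95% interval -0.61 to 0.33, limma adjusted p = 0.9998). Boscalid against DMSO it was at -0.39 (SE 0.31, -1.09 to 0.30, limma adjusted p = 0.70), and M510F01 minus boscalid at 0.25 (-0.42 to 0.92, limma adjusted p = 0.86). Each interval holds values on both sides of 0. Boscalid against DMSO, the estimate was -1.02 with replicates 1 and 2 alone and 0.23 with replicates 3 and 4 alone. The M510F01 estimate against DMSO was 0.017 without M510F01 replicate 1, and M510F01 minus boscalid it was -0.015 without boscalid replicate 2.

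Xdh (LL0000032187) encodes xanthine dehydrogenase, which makes uric acid in purine breakdown and oxidizes pteridines in pigment cells. M510F01 replicates 1 to 4 had 576, 594, 732 and 648 normalized counts. Boscalid replicates 1 to 4 had 570.5, 474, 668 and 583, and DMSO replicates 1 to 4 had 451, 590.1, 706 and 464. Replicate 3 was the highest library of each group, and the groups overlapped. Xdh was at 0.22 in M510F01 against DMSO larvae (-0.10 to 0.55, limma adjusted p = 0.9998). It was at 0.07 in boscalid against DMSO larvae (-0.29 to 0.42, limma adjusted p = 0.89) and at 0.16 M510F01 minus boscalid (-0.16 to 0.48, limma adjusted p = 0.84). Against DMSO the M510F01 estimate was 0.14 without DMSO replicate 1 and 0.35 without DMSO replicate 3. The boscalid estimate turned to -0.021 without DMSO replicate 1, -0.0077 without DMSO replicate 4 and -0.0088 without boscalid replicate 3. A further gene, LOC137488123, overlaps xdh in the RefSeq annotation, and whether reads were divided between them was not tested.

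The lineage genes passed no test, and their libraries overlapped between all groups. Csf1ra (LL0000007425), the receptor for colony stimulating factor 1 and interleukin 34, was at 453, 478, 462 and 438 normalized counts in M510F01 libraries. Boscalid libraries had 453, 492, 468 and 461 normalized counts, and DMSO libraries had 520.3, 539, 408 and 504. The spread was 3.73% of the mean with M510F01, 3.52% with boscalid and 11.8% with DMSO, where the counting error was between 4.56% and 4.62%. DMSO held both the highest and the lowest library. Csf1ra was at -0.10 in M510F01 against DMSO larvae (95% interval -0.33 to 0.13, limma adjusted p = 0.9998) and at -0.06 in boscalid against DMSO larvae (-0.30 to 0.17, limma adjusted p = 0.85). M510F01 minus boscalid it was at -0.03 (-0.24 to 0.17, limma adjusted p = 0.94), the narrowest interval for a difference between the compounds among the 7. Macrophage markers, of a cell type that also expresses csf1ra, summed to 1054 to 1603 normalized counts with M510F01, 1124 to 1402 with boscalid and 1225 to 1923 with DMSO. None of the 19 matched macrophage markers was at 0 in all libraries, and their part in the csf1ra values was not tested.

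Slc2a15b (LL0000028667) encodes a transporter of the facilitated sugar transporter family that in medaka is needed for yellow and white pigment cells. M510F01 replicates 1 to 4 had 104, 116, 115 and 135 normalized counts. Boscalid replicates 1 to 4 had 116, 89.5, 169 and 161, and DMSO replicates 1 to 4 had 113, 119, 97.9 and 111. Boscalid larvae held both the lowest library and the highest libraries, and all groups overlapped. The log2 fold change was 0.09 in M510F01 against DMSO larvae (SE 0.13, 95% interval -0.19 to 0.37, limma adjusted p = 0.9998). It was 0.23 in boscalid against DMSO larvae (SE 0.20, -0.20 to 0.67, limma adjusted p = 0.71) and -0.15 M510F01 minus boscalid (-0.53 to 0.24, limma adjusted p = 0.86). With replicates 1 and 2 alone the boscalid estimate was -0.19, and with replicates 3 and 4 alone it was 0.66. Its paralogue slc2a15a was at 200.2 ± 25.3 normalized counts with M510F01, 167 ± 26.2 with boscalid and 216 ± 34.4 with DMSO. Slc2a15a was at -0.37 in boscalid against DMSO larvae (-0.71 to -0.03, limma adjusted p = 0.65). A further gene, LOC141385860, overlaps slc2a15b in the RefSeq annotation, and whether reads were divided between them was not tested.

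By the limma test, 0 of the 5 tested members passed in M510F01 against DMSO larvae, where 0% of 23193 genes did. None passed in boscalid against DMSO larvae, where 0.0173% of 23085 genes did, or M510F01 minus boscalid, where 0.013% of 23131 genes did. Also edgeR and DESeq2 on recovered reads called 0 of the 5 in each comparison. Over all genes edgeR called 0 of 23206 with M510F01, 4 of 23109 with boscalid and 2 of 23154 between the compounds. In that order DESeq2 called 0 of 33133, 87 of 33128 and 19 of 33538 genes with a p-value. By limma, an unadjusted p under 0.05 was found for 1 of the 5 with M510F01, for 0 with boscalid and for 1 between the compounds. It was scarb1 both times, on the same M510F01 libraries. The members were chosen with earlier results of these data known. Over all genes 3.61% had an unadjusted p under 0.05 in M510F01 against DMSO, 7.68% in boscalid against DMSO and 4.6% M510F01 minus boscalid.

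Deviations of gch2 and slc2a15b from their group means shared their sign in 3 of 4 M510F01 libraries and 4 of 4 boscalid libraries, but in 1 of 4 DMSO libraries. Over deviations from the group means in 12 libraries Pearson's r was 0.86 (permutation p = 0.00041, adjusted p = 0.0086 over 21 pairs of members) and Spearman's rho was 0.80 (permutation p = 0.0026, adjusted p = 0.055). Without the libraries farthest from the median of gch2, boscalid replicates 2 and 3, r was 0.71. Deviations sum to 0 within a group, so the 12 points are not all independent. The permutation also moved deviations between groups of unlike spread. For slc2a15b the SD was 37.5 normalized counts with boscalid, 12.6 with M510F01 and 9.09 with DMSO. Permutation p-values on deviations are therefore approximate. Gch2 and xdh had r = 0.71 (permutation p = 0.011, adjusted p = 0.12) and rho = 0.71 (permutation p = 0.012, adjusted p = 0.13), and r = 0.58 without the 2 farthest libraries. On levels that include the group differences, 0 of 21 pairs passed, with r = 0.62 for gch2 and slc2a15b (permutation p = 0.030, adjusted p = 0.21) and rho = 0.57 (permutation p = 0.056, adjusted p = 0.29). There r without the 2 farthest libraries was 0.51. The 21 pairs include those with plin6 or bco1l, whose levels carry the group difference that chose them. On levels these pairs are therefore no test. The highest r on levels was that of such a pair, bco1l and scarb1, at 0.74, and it was 0.14 on deviations.

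The libraries as a whole also varied within groups, along the component described above. Over 12 libraries the correlation of their deviations with the first within-group component was 0.67 for gch2, 0.65 for bco1l, 0.49 for xdh and 0.46 for slc2a15b. It was -0.13 for plin6, -0.22 for scarb1 and -0.42 for csf1ra. The part of that component in the pair was not tested.

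**Figure D3:**
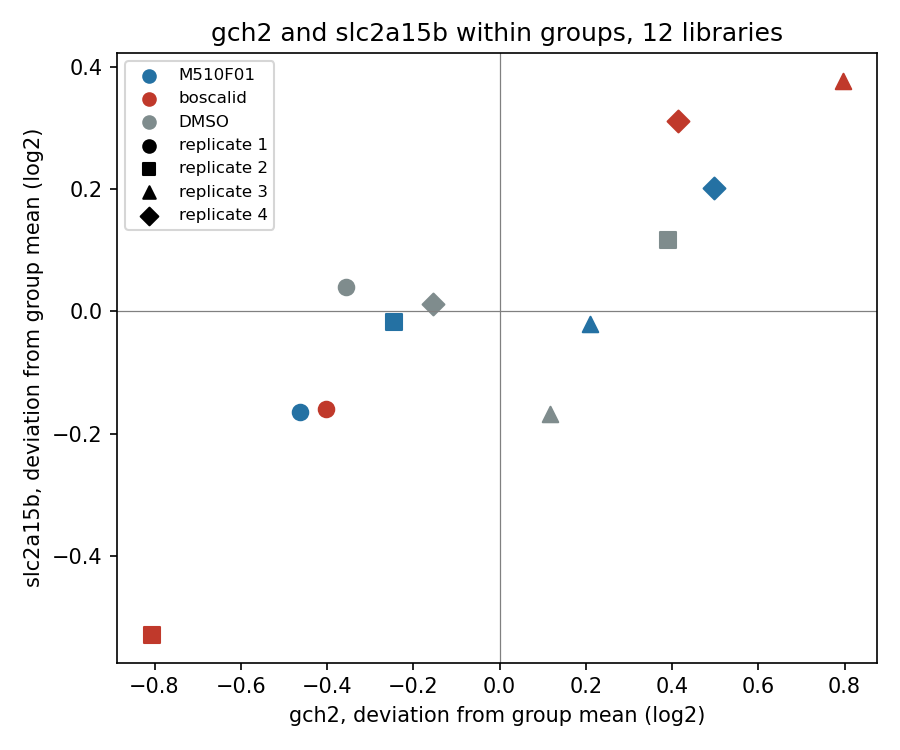
Deviation of slc2a15b (y axis) against deviation of gch2 (x axis) from the group mean on the log2 scale, in 12 libraries coloured by group and shaped by replicate number. Boscalid replicate 2 lies lowest on both axes, at -0.81 for gch2 and -0.53 for slc2a15b, and boscalid replicate 3 highest, at 0.80 and 0.38.

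The genes most like each member were ranked by Pearson's r over the 12 libraries, over 14935 named genes whose mean was at least 50. They share libraries, size factors, the within-group component and differences between groups, and being the highest of many they carry no p. For plin6 and bco1l the levels include the group difference that chose them. Nearest to plin6 were b3galt1b (r = 0.88), uacaa (0.86) and tfcp2l1 (0.86). On deviations from group means these had r of 0.71, 0.63 and 0.71. Nearest to bco1l were tacc1 (0.83), stk17al (0.81) and bik (0.81), with 0.765, 0.65 and 0.73 on deviations. Nearest to scarb1 were znf1001 (0.88), abcc2 (0.87), an export pump of liver and gut, and ensab (0.86). On deviations these had 0.86, 0.69 and 0.77. The list for gch2 began with uraha (0.90), which encodes an enzyme of uric acid breakdown, followed by tmem130 (0.87) and tmc4 (0.86). Xdh was followed most closely by ctnnal1 (0.96), cdc42ep4a (0.94) and opn3 (0.91). Csf1ra had dnah11 (0.91), crabp2b (0.87) and uhrf1 (0.85). The genes for slc2a15b were ccdc51 (0.92), fkbp14 (0.90) and tyrp1a (0.88), a melanin synthesis gene of melanophores.

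Around the members, the wider lists of each pathway and the marker lists, counted without plin6 and bco1l, held 0 genes past the limma threshold in any comparison. An unadjusted p under 0.05, held by 3.61% of all genes in M510F01 against DMSO, was found there for 2 of 18 carotenoid, 1 of 21 lineage and 0 of 14 pteridine, 14 purine and 27 retinoid genes. In boscalid against DMSO, where 7.68% of all genes held one, it was found for 3 of 18 carotenoid, 2 of 21 lineage, 3 of 14 pteridine, 1 of 14 purine and 3 of 27 retinoid genes. M510F01 minus boscalid, where 4.6% of all genes held one, it was found for 1 of 18 carotenoid genes (scarb1), 1 of 27 retinoid genes and none of the lineage, pteridine and purine genes. Among marker lists the highest shares were 5 of 15 enterocyte markers with M510F01, 5 of 12 retinal pigment epithelium markers with boscalid and 3 of 12 retinal pigment epithelium markers M510F01 minus boscalid. In the pteridine list 14 of 15 matched genes were tested. With M510F01 8 of them were positive and 6 negative (median 0.05, against 0.00 over all genes tested), and pts was at -0.23, qdpra at 0.20 and the regulator gchfr at 0.19. With boscalid 8 were positive and 6 negative (median 0.05). The largest departures by p in boscalid against DMSO larvae were pts, aox5 and qdpra. For these genes the means come from the table of boscalid and DMSO libraries. Pts, the enzyme after GTP cyclohydrolase, averaged 246 ± 51.3 normalized counts in boscalid larvae and 342 ± 52.0 in DMSO larvae (-0.49, SE 0.17, limma adjusted p = 0.62). Aox5, an aldehyde oxidase gene and a marker of xanthophores, was at 235 ± 60.4 with boscalid and 346 ± 93.9 with DMSO (-0.56, SE 0.23, limma adjusted p = 0.65). Qdpra, a dihydropteridine reductase gene, was at 1657 ± 282 with boscalid and 1260.3 ± 258 with DMSO (0.40, SE 0.16, limma adjusted p = 0.65). M510F01 minus boscalid, 8 of 14 were positive (median 0.05), and aox5 was at 0.45, pts at 0.25 and the sepiapterin reductase gene sprb at 0.63 (each limma adjusted p = 0.84). In the purine synthesis list, which feeds GTP to the pathway, 4 of 14 tested genes were positive with M510F01 (median -0.03), 6 with boscalid (-0.02) and 3 M510F01 minus boscalid (-0.07). Adsl of that list was at 0.37 with boscalid (SE 0.16, limma adjusted p = 0.65).

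In the carotenoid list all 20 matched genes were above the filter, and 18 remained to be tested without plin6 and bco1l. With M510F01 11 of the 18 were positive and 7 negative (median 0.07), with boscalid 11 and 7 (median 0.05), and M510F01 minus boscalid 7 and 11 (median -0.04). Bco2l, a gene of the carotenoid oxygenase 2 kind, was at 0.46 with M510F01 (SE 0.16, limma adjusted p = 0.9998). With boscalid bco2l was at 0.47 (SE 0.16, limma adjusted p = 0.63), against the same DMSO libraries. The seipin-like gene bscl2l, of a family that shapes lipid droplets, was at -0.37 with M510F01 (SE 0.18, limma adjusted p = 0.9998). With boscalid bscl2l was at -0.61 (SE 0.22, limma adjusted p = 0.63). Plin2, another perilipin, had 88.2 ± 42.8 normalized counts with M510F01, 50.1 ± 20.8 with boscalid and 63.7 ± 29.2 with DMSO. Its M510F01 minus boscalid value was 0.77 (SE 0.39, 95% interval -0.08 to 1.62, limma adjusted p = 0.84). Plin2 libraries overlapped, and the replicate spread of plin2 was wider than that of plin6 relative to its mean with both compounds.

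The retinoid list holds the enzymes and carriers downstream of carotenoid cleavage. Its 27 tested genes were positive in 17 cases with M510F01 (median 0.03) and in 20 with boscalid (median 0.19). M510F01 minus boscalid 4 were positive and 23 negative (median -0.15, against 0.00 over all genes). Rdh10a, a retinol dehydrogenase gene, was at 0.27 with boscalid (SE 0.10, limma adjusted p = 0.63). M510F01 minus boscalid, aldh1a3, a retinoic acid synthesis gene and 1 of the 4 positive ones, was at 0.29 (SE 0.13, limma adjusted p = 0.84). Of the 23 negative ones, lrata was at -0.37 (SE 0.18) and rdh10a at -0.20 (SE 0.10), each with a limma adjusted p of 0.84. Retinal pigment epithelium markers had a median of 0.04 with M510F01 (7 of 12 positive), 0.31 with boscalid (10 of 12) and -0.25 M510F01 minus boscalid (2 of 12). Both lists share genes of the visual cycle, and their part in each other was not tested.

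In the lineage list all 21 genes were tested. With M510F01 11 were positive and 10 negative (median 0.00), with boscalid 6 and 15 (median -0.06), and M510F01 minus boscalid 10 and 11 (median -0.03). Slc2a11a, a sugar transporter gene related to slc2a15b, averaged 59.4 ± 3.25 normalized counts in boscalid larvae and 37.8 ± 6.16 in DMSO larvae of the boscalid table (0.65, SE 0.16, limma adjusted p = 0.43), and its log2 fold change with M510F01 was 0.38 (SE 0.17, limma adjusted p = 0.9998). Erbb3b, a receptor gene of neural crest derivatives, was at -0.23 with boscalid (SE 0.11, limma adjusted p = 0.65).

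Markers of other pigment cells and tissues were spread as follows. Melanophore markers had a median of -0.13 with M510F01 (2 of 17 positive), 0.05 with boscalid (11 of 17) and -0.15 M510F01 minus boscalid (4 of 17). Pmelb, a melanosome protein gene, was at 211 ± 22.8 normalized counts with M510F01 and 286 ± 40.1 with boscalid (-0.43, SE 0.12, limma adjusted p = 0.84). Iridophore markers had medians of -0.01 with M510F01 (4 of 12 positive), 0.08 with boscalid (9 of 12) and -0.13 M510F01 minus boscalid (2 of 12). Summed melanophore levels ran from 7969 to 10216 with M510F01, 8979 to 11154 with boscalid and 8761 to 10363 with DMSO, and overlapped. Macrophage markers had medians of -0.15 with M510F01 (4 of 14 tested positive), -0.06 with boscalid (7 of 15) and -0.08 M510F01 minus boscalid (6 of 14). Enterocyte markers had medians of 0.19 with M510F01 (12 of 15 positive), 0.21 with boscalid (12 of 15) and -0.01 M510F01 minus boscalid (7 of 15), and hepatocyte markers 0.04 with M510F01, 0.03 with boscalid and -0.04 M510F01 minus boscalid, of 15 tested.

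**Figure D4:**
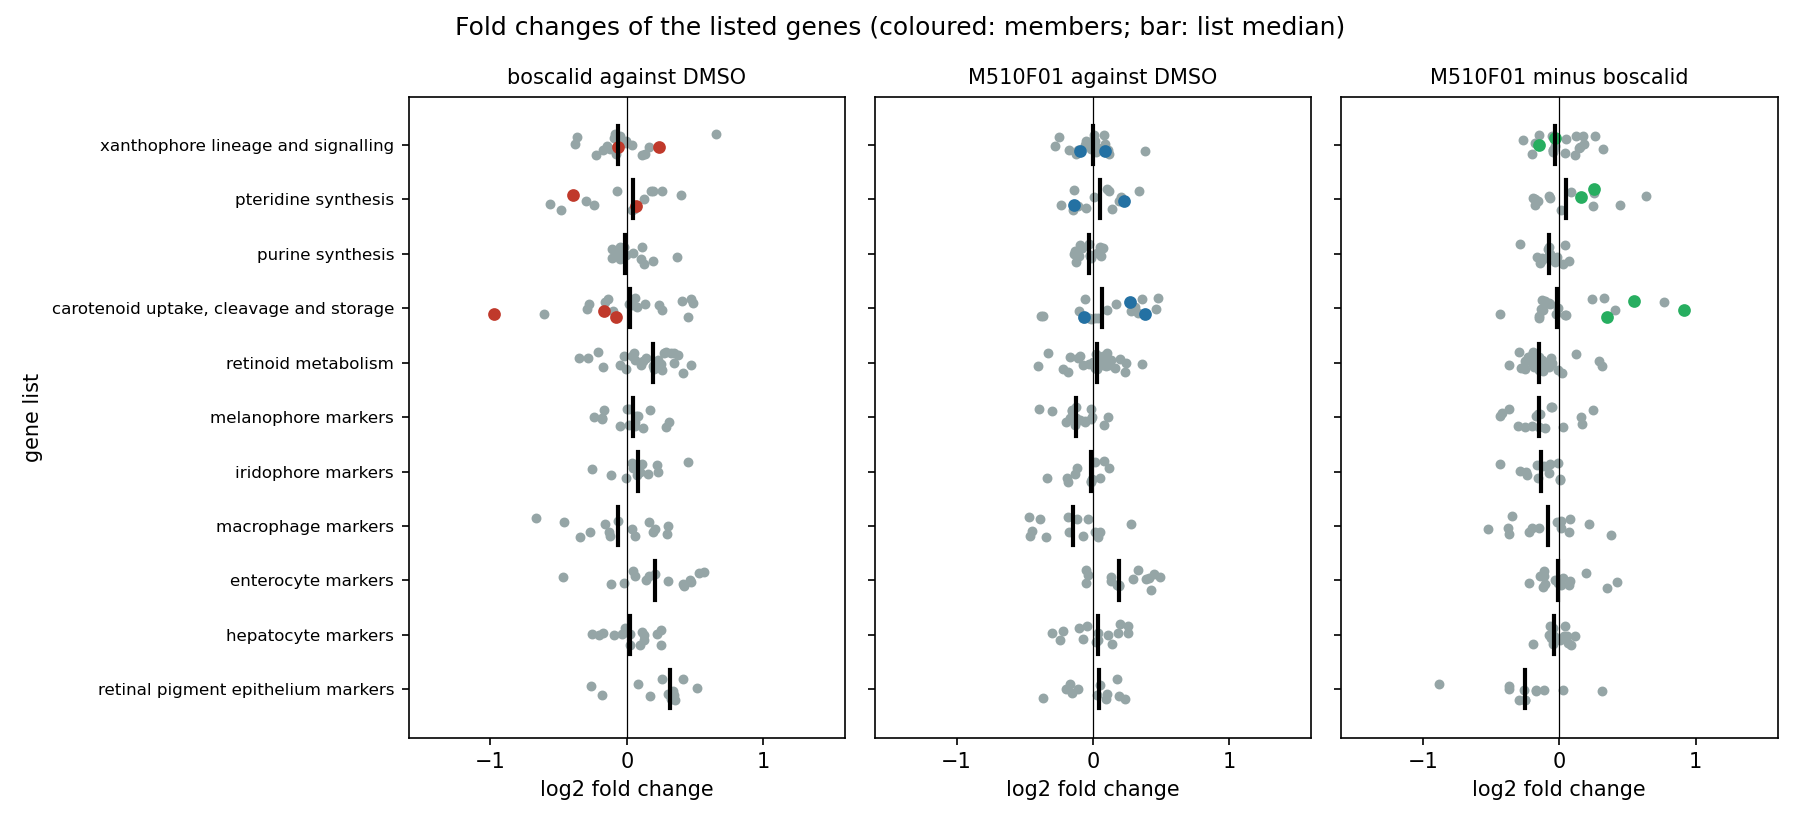
Log2 fold change (x axis) of the genes above the filter on low values in 11 lists (rows), plin6 and bco1l included though they are not tested, for the 3 comparisons. Coloured points are the members, grey points the other genes of a list, and the black bar is the list's median. Plin6, chosen on these libraries, lies at -0.98 with boscalid, and most retinoid genes lie left of 0 M510F01 minus boscalid.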

How the data were processed

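Total RNA of whole larvae was depleted of ribosomal RNA and sequenced as stranded libraries, per the labels. STAR, featureCounts, DESeq2, FastQC and cutadapt are listed in the submitters' processing notes, with no version. The build, the annotation and the strand option were not given in the sources used here. The authors deposited, per compound, signal per gene in normalized counts (reads divided by 1 size factor per library). Their other tables hold log2 fold changes against DMSO, a score (the fold change over its standard error) and p-values, as deposited, in columns named as DESeq2 names them, per the file headers. Whole reads were recovered for 100% of values within 0.01 reads.

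Comparisons with DMSO used limma 3.58.1 (R 4.3.3; trend, robust) on log2 of the normalized count plus 1, in each compound's own table, for genes with a mean of at least 10. For levels and for M510F01 minus boscalid, all 12 libraries were put on 1 scale with median-of-ratios size factors. P-values were adjusted over all genes by Benjamini-Hochberg at 0.05, and tests are two-sided. Alternatives included edgeR 4.0.16 and DESeq2 1.42.0 on recovered reads. The tests were tried on simulated counts drawn independently, without the within-group component of these libraries. How the tests do in its presence was not tried. Permutation tests used 100000 resamples in Python 3.11.15.

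The members and lists were chosen with earlier results of these data known. Of 187 distinct listed symbols 179 matched. All members were named, and of each list the 3 other genes with the smallest p could be named, as could the 3 genes most like each member and annotated paralogues. No member, promoter or protein sequence was used here.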

Additional observations from a re-analysis of the deposited data

Results flagged for a closer look

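Plin6 in DMSO replicate 2 stood at 176 normalized counts, where the other DMSO libraries lay between 84.0 and 98.3. Its gap to the nearest library was 0.845 of the group's range, over Dixon's 95% critical value for 4 samples. In all, 21 groups of 4 libraries were examined in this way, and chance marks about 1 in 20.

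Bco1l lay above the DMSO mean in all 4 M510F01 libraries and below it in all 4 boscalid libraries. The difference M510F01 minus boscalid was 0.55 on the log2 scale. It was not tested, since that contrast chose the gene.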

How the results depend on the processing

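Each alternative left 0 of the 5 tested members called in every comparison, among them the fit with replicate number as a block (0 called), edgeR, DESeq2 and the fits without 1 library. Over all genes, the replicate block called 1 gene against 0 in M510F01 against DMSO, 90 against 4 in boscalid against DMSO and 8 against 3 M510F01 minus boscalid. Same-numbered libraries did not always deviate together (r from -0.02 to 0.51 over 12 pairs of libraries, 5 of 12 best matched by their own number). The number was therefore not taken as a pairing, and the main fits carry no term for it. Replicate 1 was best matched by its own number in each pair of groups (r from 0.48 to 0.51). In M510F01 against DMSO, boscalid against DMSO and M510F01 minus boscalid, DESeq2 called 0, 87 and 19 genes, and array quality weights 0, 22 and 8. In boscalid against DMSO 1 fit of all 12 libraries on a shared scale called 9, a term for replicates 1 and 2 against 3 and 4 called 19 and fits without 1 library called 2 to 8. M510F01 minus boscalid that term called 5, edgeR 2 and fits without 1 library 2 to 3. By Pearson's r, correlations between members passed for 1 of 21 pairs on deviations from group means, against 0 on levels. On deviations the permutation p is approximate, and on levels the pairs with plin6 or bco1l are no test.

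Signs turned only in the fits named next, among the 5 tested members. With 1 library left out gch2 ran from -0.31 to 0.017 in M510F01 against DMSO, xdh from -0.021 to 0.19 in boscalid against DMSO and gch2 from -0.015 to 0.52 M510F01 minus boscalid. With replicates 1 and 2 alone slc2a15b was at -0.084 with M510F01, -0.19 with boscalid and 0.11 M510F01 minus boscalid, and scarb1 at 0.057 with boscalid. With replicates 3 and 4 alone gch2 was at 0.23 with M510F01 and 0.23 with boscalid, and csf1ra at 0.037 with boscalid. These splits were chosen after seeing the data, and the cause was not tested. The number of libraries limits the precision, as the intervals show.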
